A study of Mus musculus with 6 samples.

Results

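The cytosolic ribosomal protein genes encode the protein components of the ribosome outside mitochondria, and they were followed here in immortalized bone marrow-derived macrophages (iBMDMs) with and without knockdown of PGAM5. The set was defined by name: protein-coding genes of the GENCODE M21 annotation (mouse build GRCm38) whose symbol is Rpl or Rps with 1 or 2 digits and at most a closing a, l or x, together with Rpsa, Rplp0, Rplp1 and Rplp2. This rule found 80 of the 54532 genes in the tables, 49 of the large (60S) subunit and 31 of the small (40S) subunit. Of these, 76 reached the level required for testing, a mean of at least 1 FPKM (fragments divided by exon length in kilobases and by library size) over the 6 libraries, out of 10540 genes that did. The study asked how PGAM5, a mitochondrial protein phosphatase, affects the response of macrophages to lipopolysaccharide (LPS). The 6 RNA-seq libraries were 3 from iBMDMs carrying a control shRNA and 3 from iBMDMs carrying a PGAM5 shRNA (PGAM5 KD). All 6 were treated with LPS at 100 ng/ml for 4 hours. The cells of both groups descend from mouse bone marrow macrophages immortalized with retroviruses that carry v-raf and v-myc, and the shRNAs were delivered by lentivirus. No library without LPS was analysed here, so the comparison is between LPS-treated cells throughout. A single PGAM5 shRNA was compared, so that an effect of the knockdown and a difference between the infected cell lines cannot be told apart. Whether the 3 libraries of a group came from separate cultures is not stated, so p-values measure the spread between these libraries only, which may be technical.

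Each ribosome holds 1 copy of most of these proteins, and cells keep their production balanced with that of ribosomal RNA. Most ribosomal protein mRNAs, and those of several translation factors, begin with a C and a run of pyrimidines, the 5′ terminal oligopyrimidine (TOP) tract, through which the mTORC1 kinase and the RNA-binding protein LARP1 regulate their translation and stability. Because their mRNAs are short and abundant, they have been copied back into the genome many times as intronless processed pseudogenes. A sequenced fragment of such an mRNA can match the parent gene and a pseudogene equally well or nearly so. Which of them it is counted for then depends on the alignment and counting, and how these steps treated fragments with several matches is not given in the sources used here.

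The first bases of these genes were examined for the tract that defines the TOP mRNAs. RefSeq promoter windows (GRCm38.p6, 250 bases before to 50 after the annotated start) were found for 60 of the 80 genes. A C followed by at least 4 pyrimidines, read on the sense strand and with its C within 5 bases of the start, was present in 28 of these 60 genes (46.7%). The same letters were present in 21.2% of all 27025 genes with a window and in 23.8% of the 7679 tested genes with one. A match is a description of the sequence, and a missing match says only that the letters are not in this stretch. The lines show 30 bases, 20 before and 10 from the annotated start, with the matched letters in capitals, for genes described below. A match can begin inside a longer run of pyrimidines, as in Rpl7a, or end before the annotated start, as in Rpl19. Rpl15 was among the largest rises, Rps10 was called lower, Rplp2 encodes a stalk protein, and Rpl7a and Rpl31 were among the smallest differences, while Rpl41 shows a start without the tract.
Rpl15: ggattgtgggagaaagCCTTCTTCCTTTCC
Rplp2: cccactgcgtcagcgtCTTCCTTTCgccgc
Rps10: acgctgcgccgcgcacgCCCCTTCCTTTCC
Rpl7a: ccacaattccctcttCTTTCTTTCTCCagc
Rpl31: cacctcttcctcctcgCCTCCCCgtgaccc
Rpl41: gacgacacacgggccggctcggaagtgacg
On GRCm38.p6 these stretches are chr14:18270977-18271006 (Rpl15, minus strand), chr7:141447631-141447660 (Rplp2, plus strand), chr17:27635235-27635264 (Rps10, minus strand), chr2:26910787-26910816 (Rpl7a, plus strand), chr1:39367831-39367860 (Rpl31, plus strand) and chr10:128549159-128549188 (Rpl41, minus strand).

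The libraries held between 18163463 and 24388915 recovered fragments. PGAM5 KD library 1 stood somewhat apart, at 7.25 and 7.79 times sampling noise from the other PGAM5 KD libraries (chi-square per degree of freedom), where all other pairs within a group were at 4.68 to 5.24. Without it 54 ribosomal protein genes were called higher and 2 lower, with a median log2 fold change of 0.23, in place of 49 and 2 and 0.22. Of all genes tested, 14.2% were then called higher and 12.9% lower, in place of 16.8% and 14.9%. Pgam5, the targeted gene, was at 17.1, 12.97 and 13.4 FPKM in control and 4.33, 5.75 and 4.53 FPKM in PGAM5 KD libraries. The groups did not overlap, and the log2 fold change was -1.40 ± 0.13 (SE, n = 3 per group, limma, adjusted p = 0.000358). Of 8 macrophage markers all were measured, 3 called higher (Adgre1, Cd14 and Itgam) and 3 lower (Csf1r, Lyz2 and Cd68) in PGAM5 KD cells, where 16.8% and 14.9% of all genes tested were called. Their summed level was 2983 to 3067 FPKM in control and 2686 to 2714 FPKM in PGAM5 KD libraries. Of 8 neutrophil and 7 fibroblast markers none reached 1 FPKM, and 6 and 5 of them were listed at 0 in all libraries, Ly6g and Col1a2 among them. Of 8 lymphocyte markers, 6 were listed at 0 and Lck alone was tested, with no call. Transcripts encoded by the mitochondrial genome were lower in PGAM5 KD cells. Of 12 such transcripts tested 11 were called lower, with a median log2 fold change of -0.71, and their summed level was 7529 to 7954 FPKM in control and 4657 to 5213 FPKM in PGAM5 KD libraries. Since FPKM is a share of each library, these transcripts can shift the level of all others. Values given below as without mitochondrially encoded genes were divided by each library's FPKM sum over all other genes. TPM divides by the FPKM sum over all genes. In bulk RNA, a change in the RNA of each cell and a change in the mix of cells cannot be told apart.

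Ribosomal protein mRNAs took a larger share of the PGAM5 KD libraries. They held 4.32, 4.30 and 4.31% of all fragments in the control libraries (mean 4.31 ± 0.0083, SD, n = 3) and 4.98, 4.99 and 5.08% in the PGAM5 KD libraries (5.02 ± 0.056, SD, n = 3). The 3 PGAM5 KD libraries were all above the 3 control libraries, by 1.16 times on average. With their pseudogenes included, the share was 5.01, 4.96 and 4.97% in control and 5.76, 5.80 and 5.89% in PGAM5 KD libraries, a ratio of 1.17. On the FPKM scale, which weights each gene by its length, the 80 genes summed to 25320 to 25494 in control and 29268 to 30176 in PGAM5 KD libraries. As a share of the FPKM of all genes, which itself was larger in PGAM5 KD libraries, this was 8.34% ± 0.029 and 9.22% ± 0.11 (SD, n = 3).

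**Figure D1:**
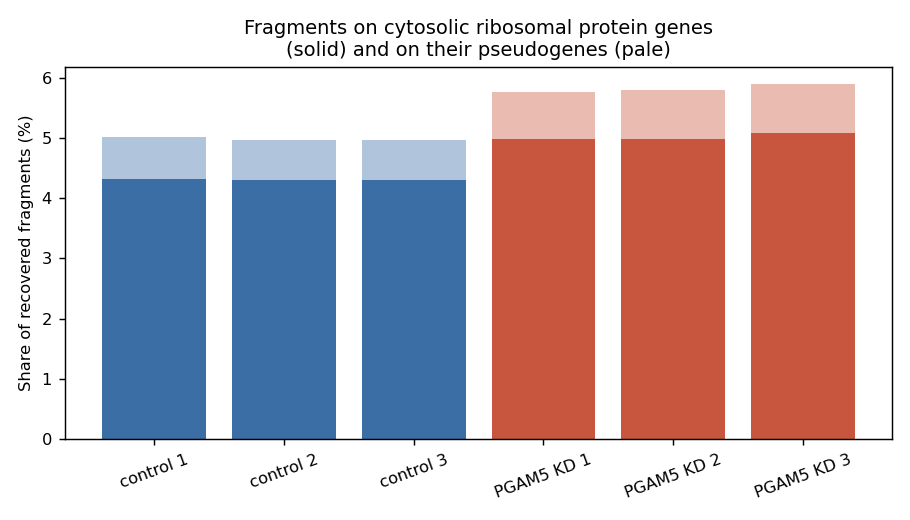
Share of recovered fragments (%, vertical axis) in each of the 6 libraries, for the 80 ribosomal protein genes (solid bars) and their pseudogenes (pale bars on top). The solid bars reach 4.30 to 4.32% in control and 4.98 to 5.08% in PGAM5 KD libraries.

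In the deposited FPKM most genes of the set were called higher. Of the 76 tested genes, 71 had a positive log2 fold change, 49 were called higher at an adjusted p under 0.05 and 2, Rps10 and Rpl30, were called lower (limma on log2(FPKM + 1), two-sided). Under TPM, without mitochondrially encoded genes, after a GC and length correction and after quantile normalization, 35, 31, 27 and 20 of the 76 were called higher and 67, 65, 63 and 54 were positive. Of all genes, 10.3, 9.64, 13.3 and 13.6% were called higher under these scalings. In the deposited FPKM, 16.8% of all 10540 genes tested were called higher and 14.9% lower, and 52.5% had a positive log2 fold change. The median log2 fold change was 0.22 for the ribosomal protein genes (quartiles 0.15 and 0.29), a factor of 1.16, against 0.01 for all genes tested. No gene of the set passed the study's own threshold, which adds an absolute log2 fold change above 1, and 1.32% of all genes did. The groups were fully separate upward in 56 genes and downward in 2, and they overlapped in 18. For all genes tested, 24.2% were separated upward and 22.9% downward. The set can be read beside other abundant genes, a difference that was not tested. Of 432 other genes with a mean of at least 100 FPKM, 39.4% were called higher and 13.7% lower, with a median log2 fold change of 0.09. Only the genes of the set were left out of these 432. They still hold pseudogenes of the set, such as Gm15772 and Gm8730, and ribosomal genes outside the naming rule, such as Fau, Rack1 and Rps3a1. Translation factors such as Eef1a1 and mitochondrially encoded transcripts such as mt-Co1 are among them too. At the same level 65 ribosomal protein genes were found, 47 called higher and 0 lower by limma, with a median of 0.23. In the whole set 3 genes had a negative log2 fold change at an unadjusted p under 0.05, none of them among those 65.

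Genes of both subunits were among those called higher, beside 16.8% called higher and 14.9% lower of all genes tested. In the large subunit 27 of 45 tested genes were called higher and 1 lower, with a median log2 fold change of 0.20. In the small subunit 22 of 31 were called higher and 1 lower, with a median of 0.23. The difference between the subunits was not tested.

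Counted without pseudogenes, the 5 genes of the set with the highest FPKM were Rplp1, Rpl8, Rps15, Rpl4 and Rpl36. Rplp0, with 43.0% of its fragments on pseudogenes, was not among these, and Rpl36 is described with the largest rises. Rplp1, a stalk protein that helps to recruit elongation factors, had the highest level, at 2199.6, 2141 and 2151 FPKM in control and 2141, 2598 and 2679 FPKM in PGAM5 KD libraries. PGAM5 KD library 1 lay among the control libraries and the other two above them, and Rplp1 was not called (log2 fold change 0.19 ± 0.08, SE, adjusted p = 0.122), but without that library it was (0.29, adjusted p = 0.001). Rpl8, a protein of the large subunit near the catalytic centre, was at 1118, 1007 and 1062 FPKM in control and 1138, 1221 and 1186 FPKM in PGAM5 KD libraries. The groups were separate and the rise was called at 0.15 ± 0.045 (SE, limma adjusted p = 0.0394). Leaving out any one of 4 libraries (control 2 or 3, PGAM5 KD 2 or 3) ended that call, with adjusted p between 0.097 and 0.119. Rps15, a small subunit protein at the head of the 40S particle, rose from 949, 902 and 907 FPKM to 1079, 1159.8 and 1137 FPKM. Rpl4, which lines the exit tunnel of the large subunit, rose from 904, 901 and 911 FPKM to 1096, 1067 and 1050.0 FPKM. These rises amounted to 0.29 ± 0.037 and 0.24 ± 0.026 on the log2 scale (SE, limma adjusted p = 0.00148 and 0.000766), and in both genes the groups were separate. After quantile normalization, which forces all libraries to 1 distribution, the fold changes of Rpl8, Rps15, Rpl4, Rplp0 and Rpsa turned negative, between -0.08 and -0.01, and none of these was called.

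The largest called rises were in 4 large subunit and 2 small subunit genes. Rpl37, a small zinc-binding protein, was at 115, 109.6 and 124 FPKM in control and 185, 140.4 and 141 FPKM in PGAM5 KD libraries. PGAM5 KD library 1 stood above the other two, and the log2 fold change of 0.41 ± 0.11 (SE, adjusted p = 0.0293) lost its call without any one of the control libraries (adjusted p 0.0506 to 0.0904). Rpl41, the smallest protein of the ribosome, rose from 536, 576 and 572 FPKM in control to 761, 716 and 729 FPKM in PGAM5 KD libraries, a log2 fold change of 0.39 ± 0.039 (SE, adjusted p = 0.000528). Rps29, another zinc-binding protein, was at 279.5, 299.8 and 263 and 406, 355 and 339 FPKM, a log2 fold change of 0.38 ± 0.075 (SE, adjusted p = 0.00927). In Rpl41 and Rps29 all PGAM5 KD libraries lay above all control libraries. Rpl36 went from 837, 774 and 837 FPKM to 1054, 1038 and 1065 FPKM, or 0.37 ± 0.037 (SE, adjusted p = 0.000543). Rps3, which sits at the mRNA entry channel and also acts in DNA repair, had the tightest replicates of the 6, at 235, 227 and 230.3 FPKM in control and 295, 292 and 299 FPKM in PGAM5 KD libraries (log2 fold change 0.35 ± 0.027, SE, adjusted p = 0.000189). Rpl15 was at 194, 179 and 182 FPKM and 244, 228 and 233 FPKM, with a log2 fold change of 0.34 ± 0.042 (SE, adjusted p = 0.00131). All 6 rises had non-overlapping groups.

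**Figure D2:**
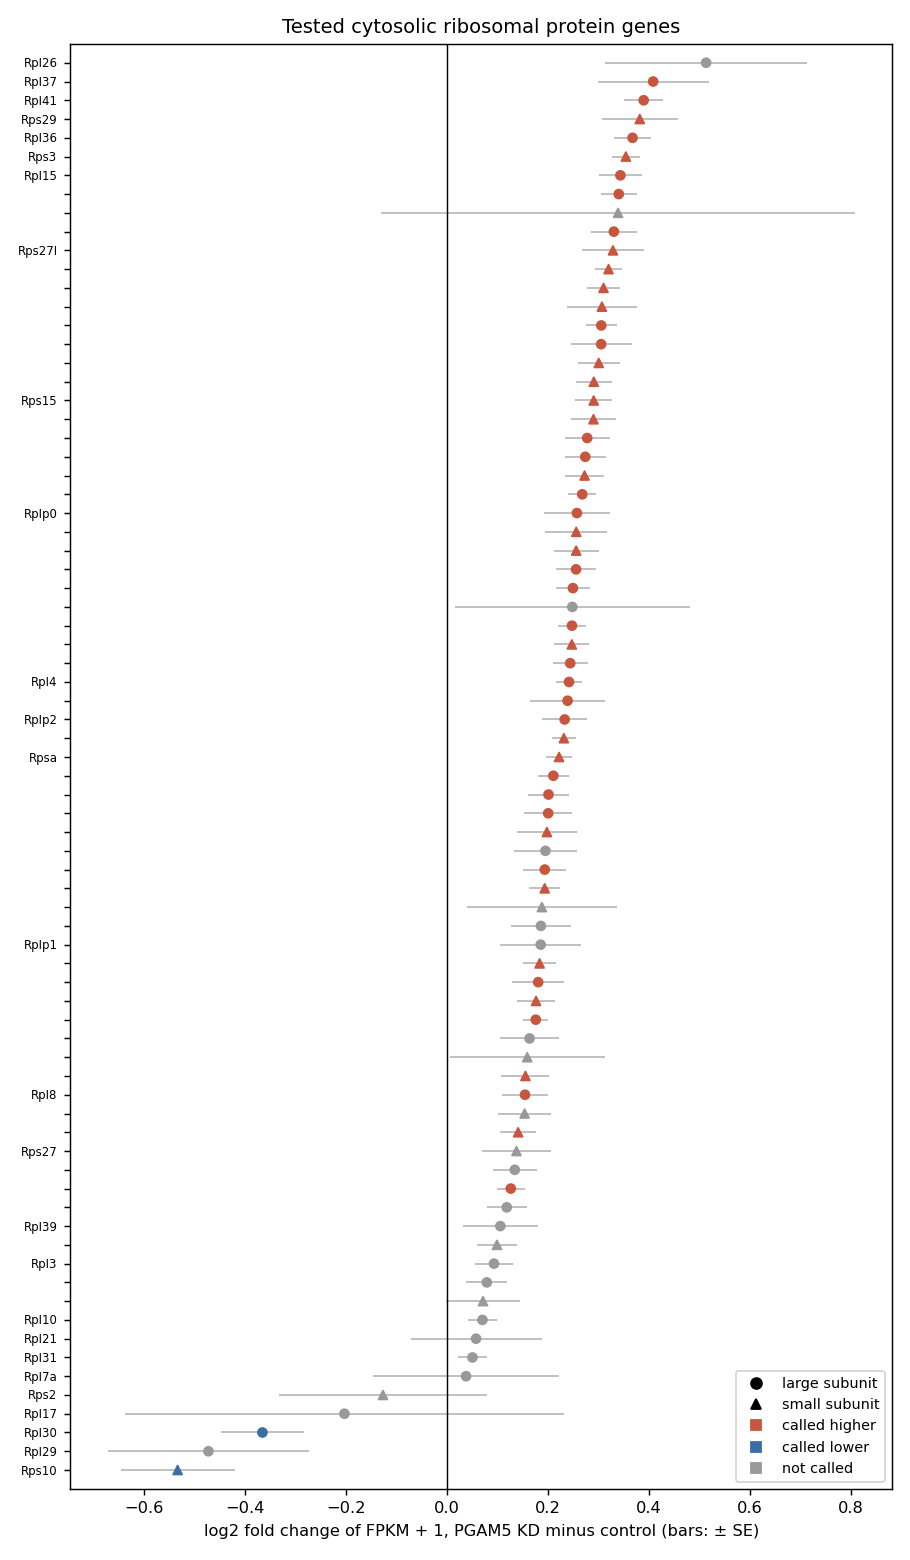
Log2 fold change of FPKM + 1, PGAM5 KD minus control (horizontal axis, bars ± SE from limma, 3 libraries per group), for the 76 tested genes in order, with names for most of the genes described in the text. Circles are large and triangles small subunit genes, and most points lie to the right of 0, between Rps10 at -0.53 and Rpl26 at 0.51, which was not called.

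Of the lateral stalk, Rplp0 and Rplp2 were called higher and Rplp1, described above, was not. Rplp0, the stalk base, was at 793, 809.7 and 900.0 FPKM in control and 1078, 966 and 949 FPKM in PGAM5 KD libraries, and Rplp2, the partner of Rplp1, at 229.7, 212 and 222 FPKM and 248, 271 and 262 FPKM. In both the groups were separate, with log2 fold changes of 0.26 ± 0.065 and 0.23 ± 0.044 (SE, limma adjusted p = 0.0232 and 0.00827). The call of Rplp0 was lost without control library 1 (0.22, adjusted p = 0.0706) or control library 2 (0.24, adjusted p = 0.0753). Pseudogenes held 43.0% of the fragments of Rplp0. Its within-group SD on the log2 scale was 0.099 alone and 0.041 with pseudogenes added. Rpsa, a small subunit protein also known as the laminin receptor precursor, rose from 708, 716 and 731 FPKM to 843, 831 and 840.5 FPKM (0.22 ± 0.025, SE, adjusted p = 0.000908).

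At the other end, 3 genes had the smallest log2 fold changes when counted alone. Pseudogenes held 24.4% of the fragments of Rpl7a, 15.8% of Rpl31 and 95.1% of Rpl21. Rpl21 was at about 1 FPKM, where the 1 added before taking logs understates a change. With its pseudogenes added it was called higher, as described below. Rpl7a was at 124, 155 and 118 FPKM in control and 117, 116 and 180.5 FPKM in PGAM5 KD libraries, Rpl31 at 228, 228 and 219 FPKM and 229.5, 236 and 233 FPKM, and Rpl21 at 0.874, 1.36 and 0.949 FPKM and 1.08, 1.18 and 1.13 FPKM. Their log2 fold changes were 0.04 ± 0.18, 0.05 ± 0.029 and 0.06 ± 0.13 (SE, limma adjusted p = 0.895, 0.236 and 0.764). The groups overlapped in Rpl7a and Rpl21, while in Rpl31 the PGAM5 KD libraries lay just above the controls. The direction of Rpl7a and of Rpl31 turned negative under TPM, under quantile normalization, without mitochondrially encoded genes and after correction for GC content and length.

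Some members have a paralogue with a restricted pattern of expression, and these were listed at or near 0. Rpl3l, a muscle form of Rpl3, was at 0.235, 0.241 and 0.343 FPKM in control and 0.111, 0.0335 and 0.275 FPKM in PGAM5 KD libraries, and Rpl10l and Rpl39l, testis forms, were listed at 0 in all 6 libraries. A value near 0 does not show that a gene is silent, since Rpl24, a gene of every ribosome, was also low. Their widely expressed counterparts, counted alone, were not called. Rpl3 was at 307, 328 and 323 and 352, 335 and 336 FPKM (0.09 ± 0.037, SE, limma adjusted p = 0.0962). Rpl10 was at 483, 492 and 500.3 and 505, 526 and 518 FPKM (0.07 ± 0.028, SE, limma adjusted p = 0.1). Rpl39 was at 92.7, 110.5 and 98.9 and 117, 104 and 104 FPKM (0.11 ± 0.075, SE, limma adjusted p = 0.322). Added to its pseudogenes, which held 33.4% of the fragments, Rpl3 came to 471, 484 and 467 and 510.4, 516 and 523 FPKM and was called higher (0.13 ± 0.026, SE, limma adjusted p = 0.0105). This call was kept on leaving out any 1 library, and lost under TPM, quantile normalization, without mitochondrially encoded genes, after the GC and length correction, without the filter and without the mean-variance trend (adjusted p 0.0537 to 0.789). Counted alone, Rpl3 and Rpl10 were separate between the groups and Rpl39 was not. The direction of Rpl3 and Rpl10 turned after quantile normalization and without mitochondrially encoded genes, and that of Rpl10 also under TPM and, like that of Rpl39 and Rps27, after the GC and length correction. Rps27l, a form of Rps27 that p53 induces, was expressed beside Rps27. Rps27l rose from 147, 166 and 159 to 204, 206 and 183 FPKM (0.33 ± 0.062, SE, limma adjusted p = 0.00785), whereas Rps27 was at 262, 283 and 307 and 290.0, 330.5 and 317 FPKM with overlapping groups (0.14 ± 0.069, SE, limma adjusted p = 0.174). The difference between the 2 paralogues was not tested. Rps4x has no second listed paralogue in the set. The fourth untested gene, Rpl24, was at 0.481, 1.06 and 0.199 FPKM in control and 0.839, 0.748 and 1.35 FPKM in PGAM5 KD libraries, and 47% of its exon length is shared with the annotated gene Gm28037.

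Levels cannot be ranked between these genes without regard to how the tables were made. FPKM divides by the summed length of all annotated exons, which ran from 383 bases in Rpl36 to 6270 bases, long beside the short mRNAs of these genes wherever alternative transcripts keep introns. Over the 53 tested genes with at most 10% of fragments on pseudogenes, Spearman's rho between mean FPKM and exon length was -0.51, given as a description, since the length is a divisor of FPKM. Exons of other annotated genes also overlap some members. They covered 66.2% of the exon length of Rpl35, 62.3% of Rpl23a, 35.4% of Rpl13a and 28.7% of Rps10. The labels do not say whether strand was kept, and without it fragments there cannot be assigned to 1 gene. Fold changes within a gene share its length, but the 1 added to FPKM before taking logs understates the change of genes at a few FPKM, such as Rps10 and Rpl29.

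In a minority of the genes, most fragments were placed under processed pseudogenes. Transcripts of 1477 annotated pseudogenes, 1463 of them processed, resembled a coding sequence of the set at 85% identity or more over at least 100 bases, and 530 of them held fragments. Of the 80 genes 77 had at least 1, with a median of 13 and up to 128. Together the pseudogenes held 13.3 to 13.8% of the fragments of genes plus pseudogenes in control and 13.4 to 14.0% in PGAM5 KD libraries. The share per gene was uneven, at a median of 3.05% of the fragments. It was under 1% in 24 genes, over 10% in 24 and over 50% in 9, which were Rpl26, Rpl29, Rps2, Rps10, Rpl21, Rpl30, Rpl24, Rpl17 and Rpl35a. With near copies of any annotated type counted, protein coding ones included, 21 genes were under 1%, 29 over 10% and 10 over 50%, the added one being Rps18, at 80.9% in place of 44.4%. Of Rpl26, 98.4% of fragments stood under pseudogenes, most of them under Gm15772, of Rpl29 98.3% (Gm13841) and of Rps2 96.3% (Rps2-ps10). Where a fragment was placed does not show where it was transcribed, and whether any of these pseudogenes is transcribed was not tested.

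Coding sequences of 4 genes and of the pseudogene with the most fragments for each show how little separates them. Rps10 and Rpl30 are shown because they were the called falls, Rpl29 for its share on pseudogenes and Rpl21 for a call that appeared once pseudogenes were added. Capitals mark the bases that differ, and the stretches of 60 bases shown for Rps10, Rpl30, Rpl29 and Rpl21 hold 4, 1, 1 and 2 of the differences. Rps10 (positions 386 to 445 of its coding sequence) and Rps10-ps2 differ at 5 of 496 aligned bases, Rpl30 (67 to 126) and Gm12191 at 1 of 348, Rpl29 (271 to 330) and Gm13841 at 3 of 483, and Rpl21 (331 to 390) and Rpl21-ps15 at 3 of 483.
Rps10: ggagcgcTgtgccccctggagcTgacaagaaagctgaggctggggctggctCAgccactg
Rps10-ps2: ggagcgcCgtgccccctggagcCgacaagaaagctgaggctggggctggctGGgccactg
Rpl30: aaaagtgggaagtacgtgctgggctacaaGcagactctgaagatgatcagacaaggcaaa
Gm12191: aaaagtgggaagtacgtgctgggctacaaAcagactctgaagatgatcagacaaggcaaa
Rpl29: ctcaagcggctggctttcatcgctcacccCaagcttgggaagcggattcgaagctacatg
Gm13841: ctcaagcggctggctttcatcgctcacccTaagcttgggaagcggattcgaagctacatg
Rpl21: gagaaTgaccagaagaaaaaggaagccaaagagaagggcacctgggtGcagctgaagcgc
Rpl21-ps15: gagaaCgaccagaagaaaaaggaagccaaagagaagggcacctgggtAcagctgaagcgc
On GRCm38 these genes lie at chr17:27630418-27636669 (Rps10, minus strand), chr15:34440505-34443640 (Rpl30, minus), chr9:106429454-106431568 (Rpl29, plus) and chr5:146832890-146837032 (Rpl21, plus). The pseudogenes lie at chr16:20822145-20822640 (Rps10-ps2), chr11:49678710-49679057 (Gm12191), chr5:115801677-115802159 (Gm13841) and chrX:151215167-151215649 (Rpl21-ps15), all on the minus strand and each on another chromosome than its parent.

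Since the origin of these fragments is not known, the fragments of each gene and its pseudogenes were also added and expressed per kilobase of the gene, as a second way of counting. In these sums 56 of 77 tested genes were called higher and 0 lower by limma, with 0 negative at an unadjusted p under 0.05 as well, and all 77 had a positive log2 fold change. Under TPM, without mitochondrially encoded genes, after the GC and length correction and after quantile normalization, 39, 39, 36 and 27 sums were called higher and 73, 72, 71 and 58 were positive. Of all entries of the table of sums, 10.9, 10.1, 13.9 and 14.2% were called higher under these scalings. Before them, 17.1% of all entries were called higher and 15.4% lower, with a median log2 fold change of 0.01. The median of the ribosomal protein genes was then 0.23. The groups were separate upward in 62 genes, with 24.3% of all entries separated that way. Of 10 calls that changed, 7 went from no call to higher, 1 from lower to higher, 1 from lower to no call and 1 from higher to no call, the last being Rpl23a. Of the 53 genes with at most 10% of fragments on pseudogenes, which the addition can hardly move, 41 were called higher and 0 lower, with a median of 0.24.

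Both called falls belonged to genes with few fragments beside those under their pseudogenes. Rps10, a protein at the head of the small subunit, was at 3.57, 4.93 and 4.01 FPKM in control and 2.36, 2.48 and 2.84 FPKM in PGAM5 KD libraries, from 104 to 230 fragments. All PGAM5 KD libraries were below all control libraries, and the log2 fold change was -0.53 ± 0.11 (SE, adjusted p = 0.0125). With 96.1% of its fragments on pseudogenes, the sums were 78.2, 77.5 and 76.7 in control and 90.9, 97.4 and 90.3 in PGAM5 KD libraries, separate in the opposite direction (0.26 ± 0.037, SE, adjusted p = 0.00236). Rpl30, a large subunit protein that also binds its own pre-mRNA in yeast, was at 6.87, 5.66 and 6.17 FPKM in control and 4.23, 4.79 and 4.81 FPKM in PGAM5 KD libraries (-0.37 ± 0.082, SE, adjusted p = 0.0157). Its sums were 87.6, 85.9 and 87.2 and 76.9, 92.6 and 94.3 and overlapped between the groups, with PGAM5 KD library 1 the lowest (0.01 ± 0.074, SE, adjusted p = 0.926), and without that library the sums were called higher (0.10, adjusted p = 0.0495). When only pseudogenes named after their parent were added, Gm12191 and Gm13841 stayed out, and the fold changes were -0.32 for Rpl30 (adjusted p = 0.0327) and -0.54 for Rpl29 (adjusted p = 0.0886).

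**Figure D3:**
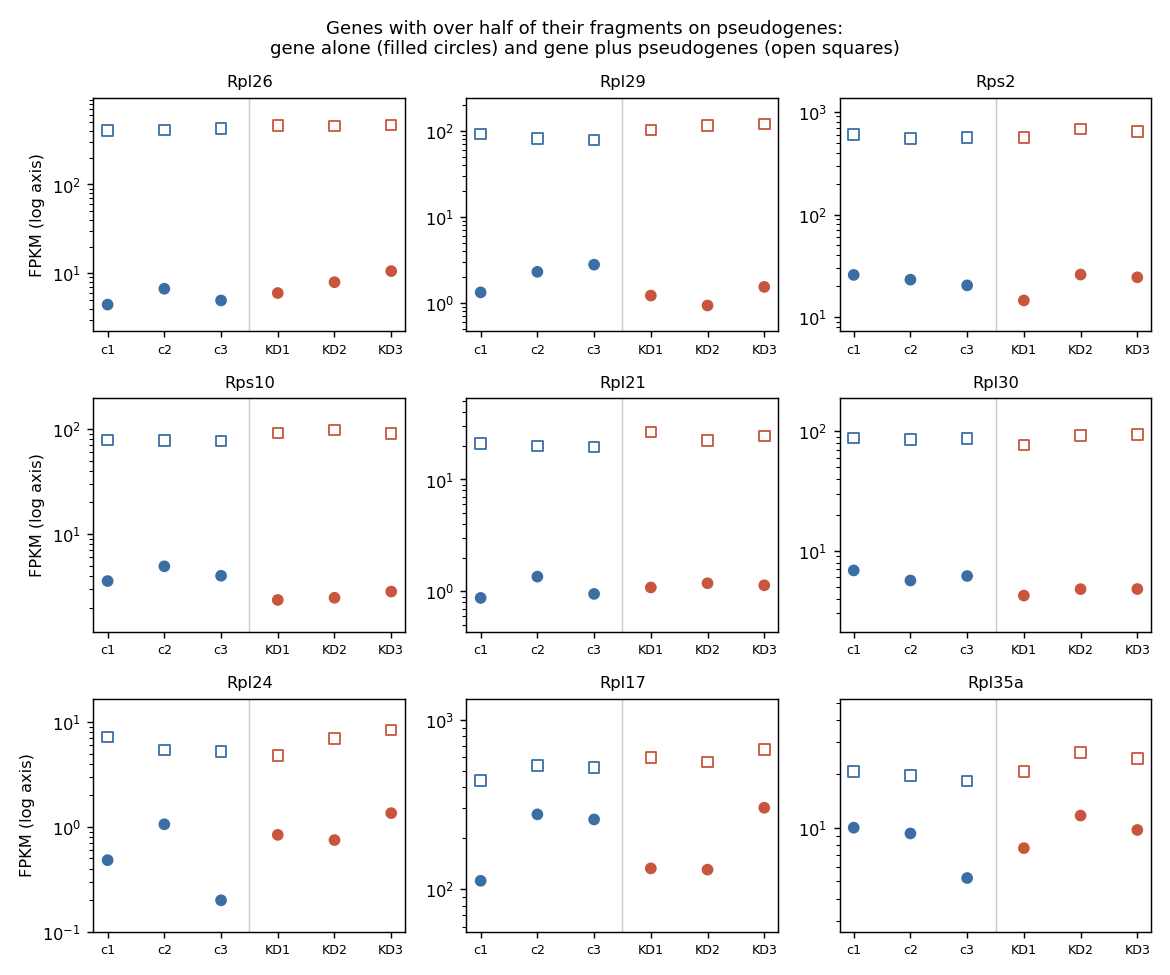
FPKM (log axes) of the 9 genes with over 50% of their fragments on pseudogenes, in the 3 control (c1 to c3) and 3 PGAM5 KD (KD1 to KD3) libraries, for the gene alone (filled circles) and the gene plus its pseudogenes (open squares). In Rps10 the circles fall from control to PGAM5 KD, 3.57, 4.93 and 4.01 against 2.36, 2.48 and 2.84, while the squares rise, 78.2, 77.5 and 76.7 against 90.9, 97.4 and 90.3.

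Other strongly affected genes moved as well once pseudogenes were added. Rpl29, a basic large subunit protein, was at 1.32, 2.29 and 2.77 FPKM in control and 1.21, 0.929 and 1.53 FPKM in PGAM5 KD libraries, overlapping and not called (-0.47 ± 0.20, SE, adjusted p = 0.117), though called lower without control library 1 (-0.67, adjusted p = 0.0277). Its sums were 91.6, 81.5 and 78.6 and 103, 115 and 119.7, separate upward (0.42 ± 0.074, SE, adjusted p = 0.00558). Rpl26, a large subunit protein that also binds the p53 mRNA, had the largest fold change of the gene values without a call. It went from 4.46, 6.73 and 4.97 FPKM to 6.02, 7.97 and 10.6 FPKM (0.51 ± 0.20, SE, adjusted p = 0.0942). Without PGAM5 KD library 1 Rpl26 was called higher (0.69, limma adjusted p = 0.0339), and without PGAM5 KD library 3 it was at 0.33 (limma adjusted p = 0.23). Its sums were far tighter, at 405, 411 and 428 in control and 459, 457 and 467 in PGAM5 KD libraries, and gave a smaller rise that was called (0.15 ± 0.029, SE, adjusted p = 0.00726). This call was lost under TPM, quantile normalization, without mitochondrially encoded genes and after the GC and length correction. Rpl21 summed to 21.1, 19.95 and 19.5 in control and 26.5, 22.4 and 24.6 in PGAM5 KD libraries (0.27 ± 0.065, SE, adjusted p = 0.0201), with a call that was lost without control library 2 or 3 or PGAM5 KD library 3 (adjusted p 0.0601 to 0.0665). Rps2, a small subunit protein at the mRNA entry channel, was at 25.8, 23.2 and 20.4 FPKM in control and 14.6, 26.02 and 24.5 FPKM in PGAM5 KD libraries (-0.13 ± 0.21, SE, adjusted p = 0.675). The sums of Rps2 were 598, 550.1 and 562 and 564, 678 and 645, overlapping through PGAM5 KD library 1 (0.14 ± 0.068, SE, adjusted p = 0.169), and were called higher without it (0.21, adjusted p = 0.0153).

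**Figure D4:**
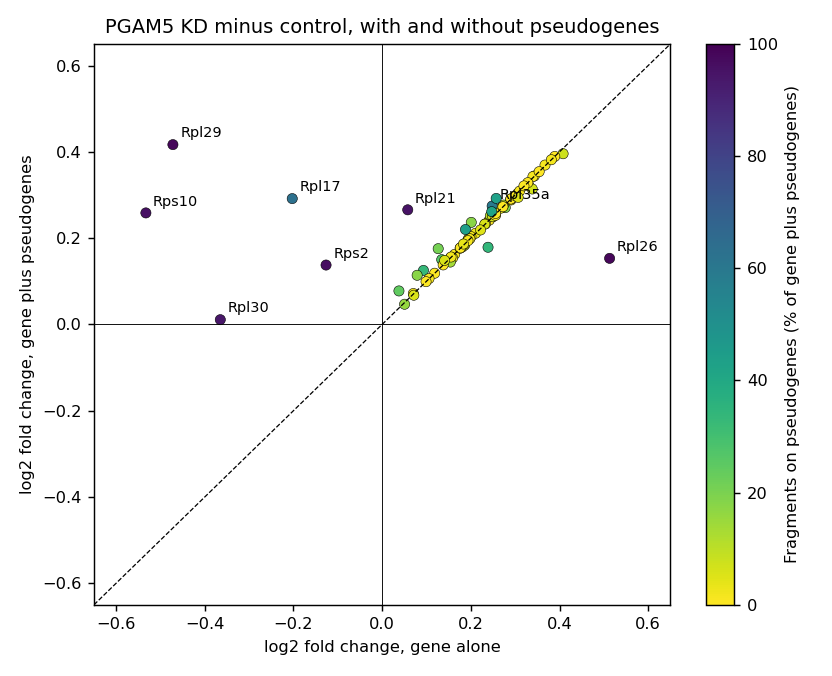
Log2 fold change (PGAM5 KD minus control) of each of 76 genes counted alone (horizontal axis) and with its pseudogenes (vertical axis), coloured by the share of fragments on pseudogenes. Most genes lie on or near the dashed line of equal values. Most of the genes with over 50% on pseudogenes leave it, among them Rps10 from -0.53 to 0.26 and Rpl29 from -0.47 to 0.42.

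In several genes the libraries of 1 group differed from each other far more than was usual for the set, whose median within-group SD was 0.057 on the log2 scale. The SD exceeded 0.2 in 9 of the 76 tested genes alone and in 4 of the 76 once pseudogenes were added. It did not always shrink with the addition, and in Rps18 it went from 0.24 to 0.42. In Rpl24, tested only as a sum, it was 0.29 with pseudogenes. Rpl17, a large subunit protein at the exit of the tunnel, was at 112, 277 and 258 FPKM in control and 133, 130.5 and 303 FPKM in PGAM5 KD libraries, with control library 1 and PGAM5 KD libraries 1 and 2 well below the others (-0.20 ± 0.44, SE, adjusted p = 0.755). Added to its pseudogenes it came to 437, 536 and 525 and 601, 563 and 667, and its SD fell from 0.71 to 0.14. The sums were separate upward (0.29 ± 0.09, SE, adjusted p = 0.0434), but the call was lost on leaving out any library except control 2 and PGAM5 KD 2 (adjusted p 0.0651 to 0.125). Rps27a, which is made as a fusion with ubiquitin, was at 287, 114 and 126 FPKM in control and 351, 116 and 206 FPKM in PGAM5 KD libraries, high in library 1 of each group. Its spread remained with pseudogenes added, at 294, 134 and 144 and 357, 138 and 222, an SD of 0.65 against 0.76. Rps27a was chosen for description after its values were seen.

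Some genes of the ribosome are left out by the naming rule. Of 8 such genes, all tested, 5 were called higher and 0 lower, with a median log2 fold change of 0.23. Of all genes tested 16.8% and 14.9% were called, and of the other genes with at least 100 FPKM 39.4% and 13.7%. Fau, Rps3a1, Rack1 and Rps27rt are themselves among those other genes. Fau, whose product is cleaved to the small subunit protein eS30, rose from 619.7, 577 and 636 FPKM to 788, 804 and 792 FPKM (0.38 ± 0.039, SE, adjusted p = 0.000638). Rps3a1, a small subunit protein, rose from 1105, 1153 and 1058 FPKM to 1228, 1312 and 1357 FPKM (0.23 ± 0.047, SE, adjusted p = 0.0108). Rack1, a scaffold on the head of the small subunit, rose from 275, 282 and 294 FPKM to 319.9, 333 and 348 FPKM (0.23 ± 0.041, SE, adjusted p = 0.00633). Rpl7l1 and the Rpl22 paralogue Rpl22l1 were also called, at 0.18 ± 0.035 and 0.34 ± 0.088 (SE, limma adjusted p = 0.00901 and 0.0247), the latter only as long as control libraries 1 and 3 and PGAM5 KD libraries 2 and 3 were all kept (adjusted p 0.0697 to 0.0806 otherwise). Rpl36al, a paralogue of Rpl36a, and Rps27rt, whose sequence matches the coding sequence of Rps27, were not called, at 0.04 ± 0.14 and -0.01 ± 0.38 (SE, limma adjusted p = 0.866 and 0.994).

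Other genes of translation and of ribosome production had smaller medians, a difference that was not tested. Of 26 tested mRNAs of translation factors and other genes known as TOP mRNAs, 13 were called higher and 2 lower, with a median log2 fold change of 0.12. Of all genes tested 16.8% were called higher and 14.9% lower, and of the other genes with at least 100 FPKM 39.4% and 13.7%. Those other genes include many of the 26 themselves, Eef1b2, Eef1g and Eif3f among them. The elongation factor subunits Eef1b2 and Eef1g rose by 0.26 ± 0.032 and 0.23 ± 0.028 on the log2 scale, and the initiation factor subunit Eif3f by 0.22 ± 0.046 (SE, limma adjusted p = 0.00144, 0.00138 and 0.0119). The helicase Eif4a2 fell, from 36.2, 38.7 and 37.2 FPKM to 30.2, 31.9 and 30.4 FPKM (-0.27 ± 0.041, SE, adjusted p = 0.00354). These counts depended on the scaling, with 4 higher and 5 lower under TPM, 3 and 7 without mitochondrially encoded genes, and 3 and 8 after quantile normalization, beside 10.3% higher and 21.7% lower of all genes under TPM, 9.64% and 23.5% without mitochondrially encoded genes, and 13.6% and 16.3% after quantile normalization. The higher ones fell to 6, 8, 7 and 8 without control library 1 or 2 or PGAM5 KD library 2 or 3. Of all genes, 11.5 to 13.2% were called higher in those fits. Of 59 tested genes of RNA polymerase I and ribosome assembly, 7 were called higher and 9 lower, with a median of 0.01. These counts lie near the 16.8% and 14.9% of all genes tested, and nothing is read from them about the list. Utp20, a large scaffold of the pre-ribosome, fell from 31.2, 33.98 and 33.3 FPKM to 24.6, 23.9 and 24.2 FPKM (-0.42 ± 0.043, SE, adjusted p = 0.000581). Polr1b, a core subunit of RNA polymerase I, and Rrp1b, a nucleolar factor, fell by 0.29 and 0.27 on the log2 scale (limma adjusted p = 0.00719 and 0.00482), while the chaperone Npm3 rose from 73.04, 67.3 and 70.9 FPKM to 92.6, 86.1 and 80.8 FPKM (0.29 ± 0.057, SE, adjusted p = 0.00884). Under TPM 1 of these 59 was called higher and 13 lower, and without mitochondrially encoded genes 1 and 17, again beside 21.7% and 23.5% of all genes called lower. Leaving out single libraries gave 2 to 5 higher and 5 to 8 lower, beside 11.5 to 14.2% and 10.7 to 12.9% of all genes.

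Of 21 regulators of TOP mRNAs and ribosome production, all tested, 2 were called higher and 5 lower, with a median log2 fold change of -0.11, where 16.8% and 14.9% of all genes tested were called. With so few genes this count is a description of them alone. Myc, a transcription factor for many genes of ribosome production, was at 45.3, 46.00 and 42.9 FPKM in control and 36.3, 39.2 and 36.5 FPKM in PGAM5 KD libraries (-0.25 ± 0.046, SE, adjusted p = 0.00648). The immortalizing virus carries v-myc, and whether its RNA adds to this count was not tested. Larp4, a relative of LARP1 that binds poly(A), was at 31.6, 32.5 and 30.04 and 27.2, 26.02 and 25.5 FPKM (-0.25 ± 0.045, SE, adjusted p = 0.00681). Larp1 itself and the mTORC1 subunit Rptor were called lower as well, at -0.15 ± 0.036 and -0.18 ± 0.050 (SE, limma adjusted p = 0.0174 and 0.0321). Mtor was not called (-0.13 ± 0.048, SE, limma adjusted p = 0.0844). The inhibitors of cap-dependent initiation Eif4ebp2 and Eif4ebp1 were called in opposite directions, at -0.28 ± 0.035 and 0.21 ± 0.062 (SE, limma adjusted p = 0.0015 and 0.0387), and the call of Eif4ebp1 was lost without any single library other than control library 1 (adjusted p 0.0528 to 0.11). mRNA levels do not report the phosphorylation through which mTORC1 acts on these proteins.

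The size of the rise depended on how the libraries were scaled to each other. The median log2 fold change of the 76 genes was 0.22 in the deposited FPKM and 0.14 in TPM. It was 0.12 after scaling to the FPKM sum without mitochondrially encoded genes, 0.11 after correction for GC content and length, and 0.07 after quantile normalization. Leaving those genes out of the sum is the step from 0.14 to 0.12, and the step from 0.22 to 0.14 is TPM scaling alone. The medians of all genes tested under the same scalings were 0.01, -0.06, -0.07, 0.0003 and -0.0027, so that the ribosomal protein genes stood above them by 0.20, 0.20, 0.19, 0.11 and 0.07. The counts of genes called higher and lower were 35 and 2 in TPM, 31 and 2 without mitochondrially encoded genes, 27 and 2 after the GC and length correction, and 20 and 4 after quantile normalization. Of all genes, 16.8% were called higher and 14.9% lower in FPKM, 10.3% and 21.7% in TPM, 9.64% and 23.5% without mitochondrially encoded genes, 13.3% and 13.9% after the GC and length correction, and 13.6% and 16.3% after quantile normalization. The tested ribosomal protein genes were shorter than other genes, with a median exon length of 1806 bases against 4093, and had a median GC content of 52.2% against 50.2%. How much of the rise belongs to length or GC content was not tested beyond that correction. Leaving out any 1 library gave 40 to 54 genes called higher and medians between 0.19 and 0.23, beside 11.5 to 14.2% of all genes called higher.

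**Figure D5:**
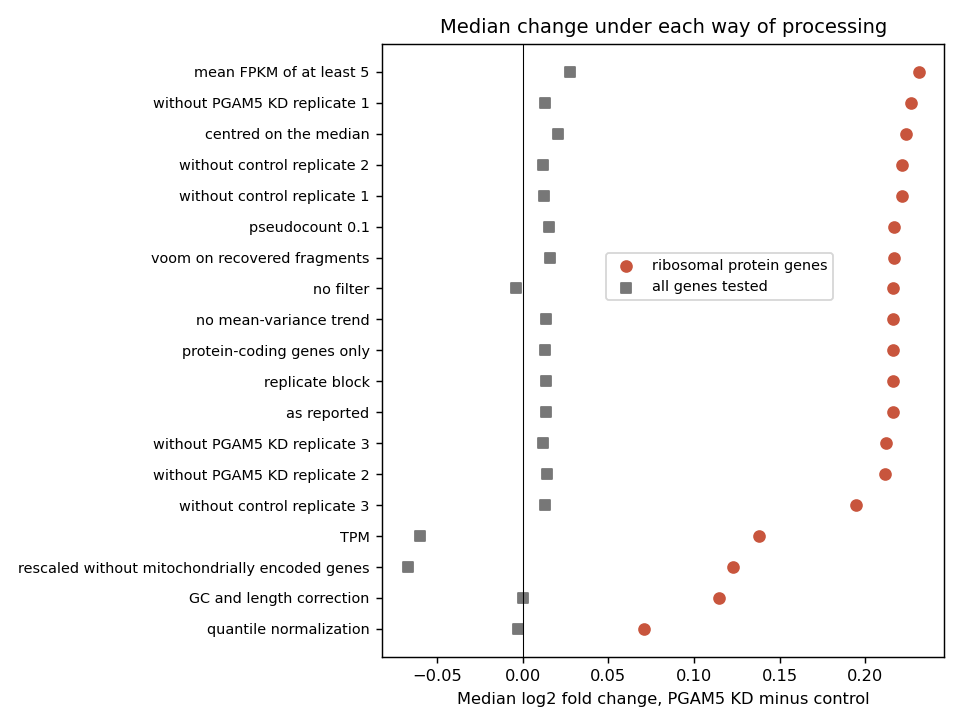
Median log2 fold change (PGAM5 KD minus control) of the ribosomal protein genes (circles) and of all genes tested (squares) under each way of processing the gene values, listed on the vertical axis. The circles range from 0.07 after quantile normalization to 0.23 with a filter of at least 5 FPKM and lie to the right of the squares in every row.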

How the data were processed

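RNA was measured in 6 libraries, grouped by their labels into 3 control and 3 PGAM5 KD. The authors deposited FPKM per library, with fragments counted per Ensembl gene and divided by exon length and depth. The submitters' processing notes name HISAT2 (2.0.5), featureCounts (1.5.0-p3) and mm10, and the treatment of fragments with several matches is not given in the sources used here. Of 54532 gene identifiers 54495 were in GENCODE M21. FPKM times exon length gave whole fragments (tolerance 0.01) for 96.8 to 97.1% of the values below 1000 fragments, and with them the depth and the fragments of each gene; for Rpl17, Rps14, Rps18 and Rps28 the fragments were not whole. Replicates differed by 4.68 to 7.79 times sampling noise (chi-square per degree of freedom), the highest for PGAM5 KD library 1, so none was a copy.

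The test was limma's (version 3.58.1, R 4.3.3) on log2(FPKM + 1), with a trend of the variance and two-sided p-values adjusted by Benjamini-Hochberg over all genes that averaged 1 FPKM or more. It was checked on simulated data. A gene was called at an adjusted p under 0.05. An exact permutation of 3 libraries against 3 cannot go below p = 0.1. Coding sequences were matched to annotated transcripts with blastn 2.17.0, each pseudogene was given to its best gene, and the fragments were summed. The members and gene lists were chosen with earlier results of these data known. Genes described one by one were Pgam5, the highest, most and least changed members, the stalk genes and Rpsa, paralogue pairs, untested members, those with the largest pseudogene shares or changes on adding them, ribosomal genes outside the rule, and up to 4 of the largest called changes of each other list. Larp1, Rptor and Mtor were added after their values were seen. The letters of the naming rule were read without regard to case. Of the 80 members, 20 had no RefSeq promoter entry, among them Rpl3, Rpl21, Rpl17, Rpl36, Rps20, Rps14, Rplp1, Rpl8, Rpl23a, Rpl30, Rps29, Rpl32, Rpl29, Rps27a and Rpl7. Some genes counted in the totals are not reported here one by one. Alternatives covered the pseudocount, filter, scaling, GC and length, test, pseudogene definition, a replicate block and single libraries left out.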

Additional observations from a re-analysis of the deposited data

How the results depend on the processing

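The fall of Pgam5 and the positive medians of the ribosomal protein genes, alone and with pseudogenes, kept their direction under every alternative run. The counts of calls depended on scaling. After the GC and length correction 27 genes and 36 sums were called higher, with medians of 0.11 and 0.14, beside 7 TOP mRNAs of translation and 2 assembly genes called higher. TPM gave medians of 0.14 and 0.16, 4 higher and 5 lower among the TOP mRNAs and 1 assembly gene higher. Without mitochondrially encoded genes 31 genes were called higher, with medians of 0.12 and 0.14, beside 3 higher and 7 lower TOP mRNAs and 1 higher and 17 lower assembly genes. Quantile normalization gave 20 genes higher and 4 lower, Rps10, Rpl30 and Rps4x among them, 27 sums higher and 1 lower (Rpl10), medians of 0.071 and 0.079, 3 higher and 8 lower TOP mRNAs and 3 assembly genes higher. A filter of at least 5 FPKM left 1 gene called lower, since Rps10 was no longer tested. Without a filter or without the mean-variance trend 7 TOP mRNAs were called higher, with 2 and 3 assembly genes, beside 6.36% and 14.7% of all genes. voom on recovered fragments, which gave 60 genes and 68 sums called higher, called 4 TOP mRNAs lower. With pseudogenes taken by name, 1 sum, Rpl30, was called lower. Adding every copy of any gene type, an alternative chosen after seeing the data, gave 57 higher and 0 lower, beside 17.1% and 15.4% of all entries.

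The replicate numbers did not pair the libraries (correlations of deviations -0.020, 0.016 and -0.052). With a replicate block 44 genes were called higher and 2 lower, 53 sums higher, 8 TOP mRNAs higher and 3 assembly genes higher, beside 13.7% higher and 11.5% lower of all genes and 14.4% and 12.2% of all entries of the table of sums.

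Leaving out single libraries gave 40 to 54 genes higher and 2 to 3 lower, medians of 0.19 to 0.23, 46 to 62 sums higher and 0 lower, medians of 0.22 to 0.24, 6 to 9 TOP mRNAs higher and 2 to 3 lower, 2 to 5 assembly genes higher and 5 to 8 lower, and a log2 fold change of Pgam5 between -1.50 and -1.28. Leaving out single libraries moved the fold changes of Rpl17 between -0.62 and 0.030, Rpl21 between -0.0067 and 0.16, and Rpl7a between -0.17 and 0.16. Rps2 moved between -0.27 and 0.12, Rpl36al between -0.062 and 0.18, and Rps27rt between -0.42 and 0.25. The sum of Rpl30 moved between -0.042 and 0.10. Rpl26 stayed positive between 0.33 and 0.69, Rpl39 between 0.049 and 0.17, and Rps27 between 0.082 and 0.20. None of these was called with all libraries.

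Some fold changes, called ones included, turned their sign. After the GC and length correction this held for Rpl7a (-0.092), Rpl31 (-0.084), Rpl10 (-0.050), Rpl39 (-0.035), Rps27 (-0.00029), Rpl36al (-0.10) and the sum of Rpl30 (-0.071). Under TPM it held for Rpl7a (-0.041), Rpl31 (-0.028), Rpl10 (-0.0083), Rpl36al (-0.012) and the sum of Rpl30 (-0.064). Without mitochondrially encoded genes it held for Rpl7a (-0.055), Rpl31 (-0.043), Rpl3 (-0.00030), Rpl10 (-0.023), Rpl36al (-0.023) and the sum of Rpl30 (-0.078). Quantile normalization turned Rpl8 (-0.083), Rps15 (-0.0096), Rpl4 (-0.0062), Rpl7a (-0.043), Rpl31 (-0.045), Rplp0 (-0.046), Rpsa (-0.027), Rpl3 (-0.069), Rpl10 (-0.065) and the sums of Rpl30 (-0.059) and Rps2 (-0.11). Centring on the median turned Rps27rt (0.0014), and taking pseudogenes by name turned the sums of Rpl29 (-0.54) and Rpl30 (-0.32). The cause was not tested in any of these. Genes with few fragments of their own, such as Rpl24 with 4 to 34, could not be measured apart from their pseudogenes.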
